A study of Caenorhabditis elegans with 2 samples.

Results

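The TALE homeobox genes of Caenorhabditis elegans other than unc-62 itself were examined for UNC-62 peaks: the PBC genes ceh-20, ceh-40 and ceh-60, the Meis-related gene psa-3 and the Iroquois gene irx-1. They are 5 of the 19985 protein-coding genes annotated by Ensembl on WBcel235, the assembly whose coordinates are those of ce11, and they are defined by gene family. Chromatin immunoprecipitation and sequencing (ChIP-seq) against UNC-62 had been done on whole animals of strain OP602 at L4, the last larval stage, with the sexes pooled. The strain is a stable transgenic line in which UNC-62 carries GFP and FLAG at its C-terminus, and its chromatin was sheared by sonication. There was 1 group, of 2 biological replicates, and no other genotype or stage. All cells of the larva were pooled, so the cell types that hold a peak cannot be told apart.

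TALE homeodomain proteins have extra amino acids in a loop of the homeodomain. Those of the PBC class (Pbx in vertebrates, Extradenticle in Drosophila) and of the Meis class (Meis in vertebrates, Homothorax in Drosophila) bind each other, and together they bind DNA beside Hox proteins. UNC-62 is the Meis-class protein of this nematode, CEH-20 is its best-studied PBC partner, and CEH-60 acts with UNC-62 in the control of yolk protein genes. Proteins of the Iroquois class carry a TALE homeodomain but are not part of the Hox cofactor complex.

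A peak was placed at a gene when its summit lay inside the gene or up to 10000 bp upstream of it. The authors' deposited lists comprised 30000 entries for the pooled replicates, 15466 for replicate 1, 24524 for replicate 2, and 114 reproducible peaks selected by the irreproducible discovery rate (IDR). The pooled list is labelled as peaks and background used as input for IDR. Its entries are called pooled peaks here, but being listed does not by itself make an entry a bound site. Peaks were ranked within each list by the authors' signal value, 1 being the strongest. A rank from 1 list is not on the same scale as a rank from a list of another length. The lists reach down to weak regions: 95.6% of all protein-coding genes had at least 1 pooled summit in their window, and 20.7% of the pooled peaks overlapped no peak of either replicate. Presence in the pooled list is therefore given here with rank and replicate overlap, and read depth is unknown.

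None of the 5 genes had an IDR summit, against 1.43% of all protein-coding genes, so that 0 of 5 is no departure from the background. The strongest pooled summit at ceh-20 ranked 212, at irx-1 632, at ceh-60 2292, at ceh-40 4194 and at psa-3 7039. The corresponding pooled signal values were 28, 22.5, 18, 15.9 and 14.1, all below 32.5, the lowest signal in the IDR list. Thus ceh-20 and irx-1 had a pooled summit of rank 1000 or better, which 11.6% of all genes had. Set against all genes, 2.63% had a pooled summit as strong as that of ceh-20, 7.53% for irx-1, 24% for ceh-60, 38.6% for ceh-40 and 55.6% for psa-3. The median best rank was 2292 over the 5 genes and 5541 over the 19096 genes with a pooled summit. The windows of the members had a median of 14502 bp against 12026 bp over all genes, and the part of window length in these ranks was not tested. Among the members the window of ceh-20 was the shortest (11902 bp) and that of psa-3 the longest (21368 bp). The unc-62 gene itself held the top-ranked pooled peak, with a signal of 105, and 5 IDR summits. The labels do not say whether the tagged transgene adds copies of the unc-62 region, so all values at unc-62 are given for reference and not as a yardstick.

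**Figure D1:**
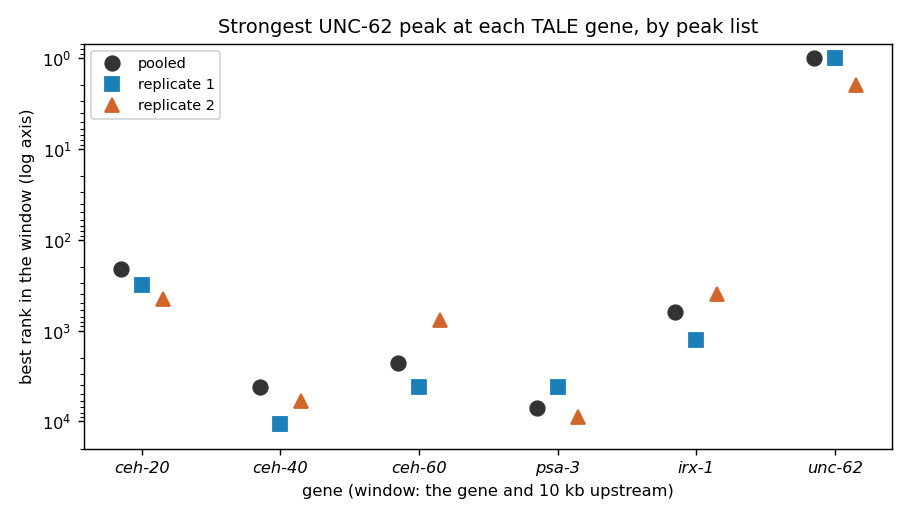
Rank of the strongest UNC-62 peak (log axis, 1 = strongest) in the pooled, replicate 1 and replicate 2 lists, for each TALE gene and its window of the gene and 10 kb upstream. Ranks come from lists of different lengths and, within a gene, can come from different peaks: at ceh-20 the pooled rank of 212 and the replicate 1 rank of 317 are the peak beside rfc-4, and the replicate 2 rank of 449 is the promoter peak.

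**Figure D2:**
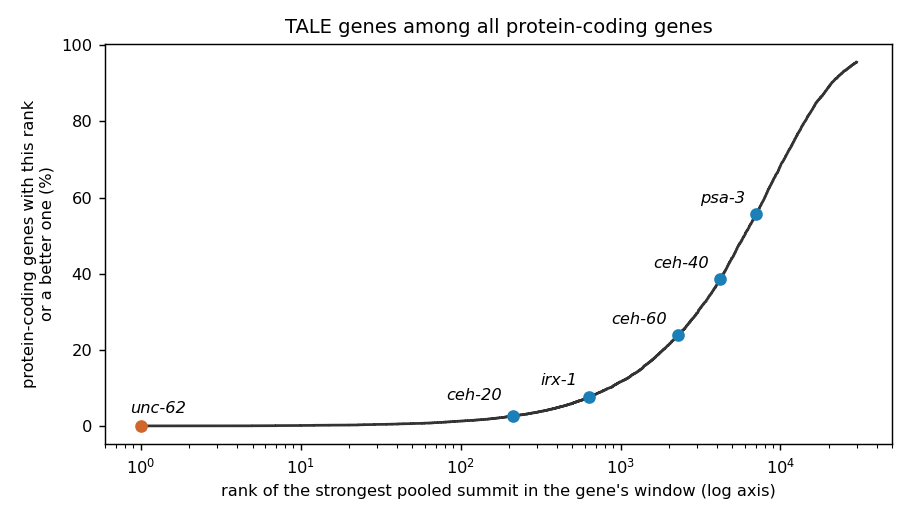
Share of all 19985 protein-coding genes (y axis, %) whose strongest pooled summit has a given rank or a better one (x axis, log scale), with the TALE genes marked on the curve. The curve ends at 95.6% because the other genes have no pooled summit in their window.

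The 5 windows held 25 pooled summits, 11 inside the genes and 14 upstream. The median density was 3.16 summits per 10 kb of window, against 2.85 over all genes. By gene, ceh-20 had 6.72 per 10 kb, irx-1 3.45, ceh-40 3.16, ceh-60 2.28 and psa-3 1.87. For 9 of the 25 summits the nearest protein-coding transcript start was that of the TALE gene, and for 16 it belonged to a neighbour. The TALE gene's own start was nearest for 2 of 8 summits at ceh-20 and 2 of 5 at irx-1. It was nearest for 0 of 4 at ceh-40, 2 of 4 at ceh-60 and 3 of 4 at psa-3. The densities by gene thus include many summits nearer to neighbours. By annotation, 9 summits lay in introns only, 8 in coding exons, 7 between genes and 1 in untranslated sequence. Their ranks had a median of 15281, and 12 of the 25 were in the stronger part of the pooled list, above its median signal of 11.4.

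A peak of both replicates overlapped 5 of the 25 pooled peaks by at least 1 bp, a peak of replicate 1 alone 7, a peak of replicate 2 alone 9, and 4 were overlapped by neither. Over the whole pooled list both replicates overlapped 20.1% of peaks, so the members' count is at the background. At the gene level 46.6% of all protein-coding genes had a pooled summit overlapped by both replicates, and of the 5 TALE genes 2 did, ceh-20 and ceh-40, again no departure from it. All the doubly overlapped peaks were upstream, 4 at ceh-20 and 1 at ceh-40. Every pooled peak at ceh-60, psa-3 and irx-1 was overlapped by exactly 1 replicate. At unc-62, with the same limit on its copy number, 9 of 16 pooled peaks were overlapped by both.

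**Figure D3:**
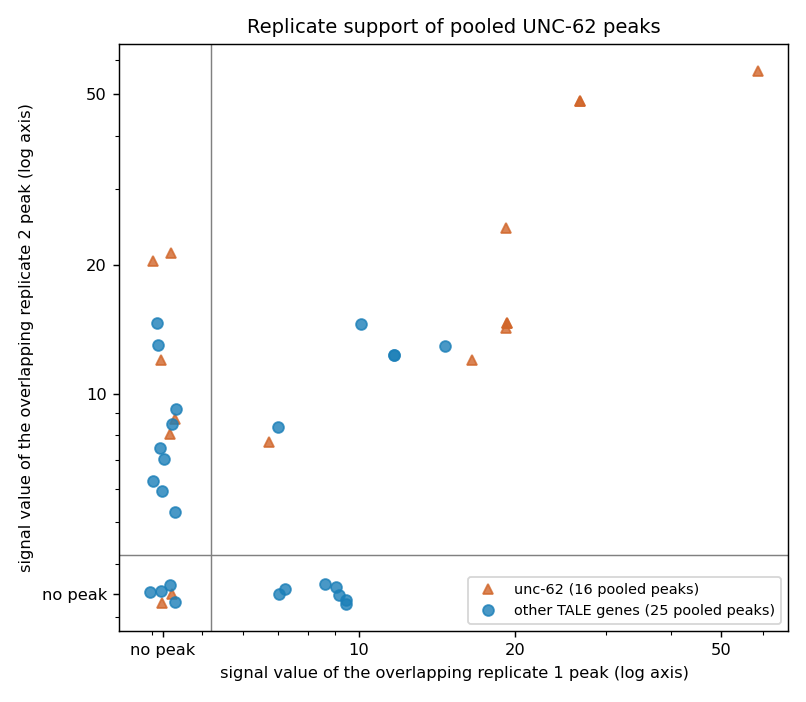
Signal value of the replicate 1 peak (x axis) and replicate 2 peak (y axis), both on log axes, that overlap each pooled peak at unc-62 (triangles) and at the other TALE genes (circles). Where more than 1 peak of a replicate overlapped, the strongest is shown. Points in the margins marked "no peak" are spread for visibility; 5 of the 25 circles and 9 of the 16 triangles have a peak in both replicates, and no circle exceeds a signal of 15 on either axis.

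The PBC gene ceh-20 (WBGene00000443, III:6979884-6981785, plus strand) encodes the orthologue of Extradenticle and Pbx, which acts with Hox proteins in the postembryonic mesoderm, the migrating Q neuroblasts and the vulva. It had 8 pooled summits, 6 upstream and 2 inside its 1902 bp. The strongest, at III:6972129, lay 7755 bp upstream of ceh-20, between eef-1A.1, which encodes a translation elongation factor, and rfc-4, which encodes a subunit of replication factor C. Its signal was 28 in the pooled list (rank 212), 14.7 in replicate 1 (rank 317) and 12.9 in replicate 2 (rank 815). Its summit was 124 bp from the start of rfc-4, so distance alone would assign it to that gene. The summit nearest to the start of ceh-20 among those upstream was at III:6979160, 724 bp from it, with pooled signal 24 (rank 447). In replicate 1 the peak there had a signal of 10.1 (rank 3102) and in replicate 2 14.5 (rank 449). Both replicates therefore had a peak at this promoter.

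A further pair of summits, at III:6969986 (signal 19.7, rank 1387) and III:6970202 (17.2, rank 2778), lay in coding exons of F31E3.12 and eef-1A.1 near the far edge of the window, 102 and 318 bp inside it. They overlapped the same single peak of replicate 1 (rank 1392) and of replicate 2 (rank 1026), and so are not separate observations. The 4 remaining summits were weak, from rank 17507 to 26146. Those inside the gene, 894 and 1429 bp from its start, both lay in coding exons, and replicate 2 overlapped the former at rank 5683. Of the TALE genes, ceh-20 alone had a pooled summit of rank 1000 or better that both replicates overlapped; 10.5% of all genes had one. Restricted to summits whose nearest start was the gene's own, a rank of 1000 or better was reached by ceh-20 and irx-1, and by 3.9% of all genes. The irx-1 assignment differed between the pooled summit and that of replicate 2, as given below.

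The sequence under the ceh-20 promoter summit is shown because it is the strongest peak assigned to a PBC gene's own start. It spans chrIII:6979060-6979260 of ce11 on the plus strand, with the summit at its centre. Capitals mark TGACA, the start of the Meis core, on either strand.
ceh-20 promoter peak: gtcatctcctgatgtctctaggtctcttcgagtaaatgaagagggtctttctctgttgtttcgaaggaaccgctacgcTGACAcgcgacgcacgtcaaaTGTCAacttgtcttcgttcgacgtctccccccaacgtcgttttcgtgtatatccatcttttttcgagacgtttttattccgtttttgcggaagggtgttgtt
The 2 TGACA matches lay 18 bp from the summit and across it, on opposite strands. TGACA was searched after the sequences had been seen; it was found in 10 of the 25 windows at TALE genes (40%) and in 35.7% of all pooled windows of the same length. The full Meis core TGACAG was absent from this window.

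**Figure D4:**
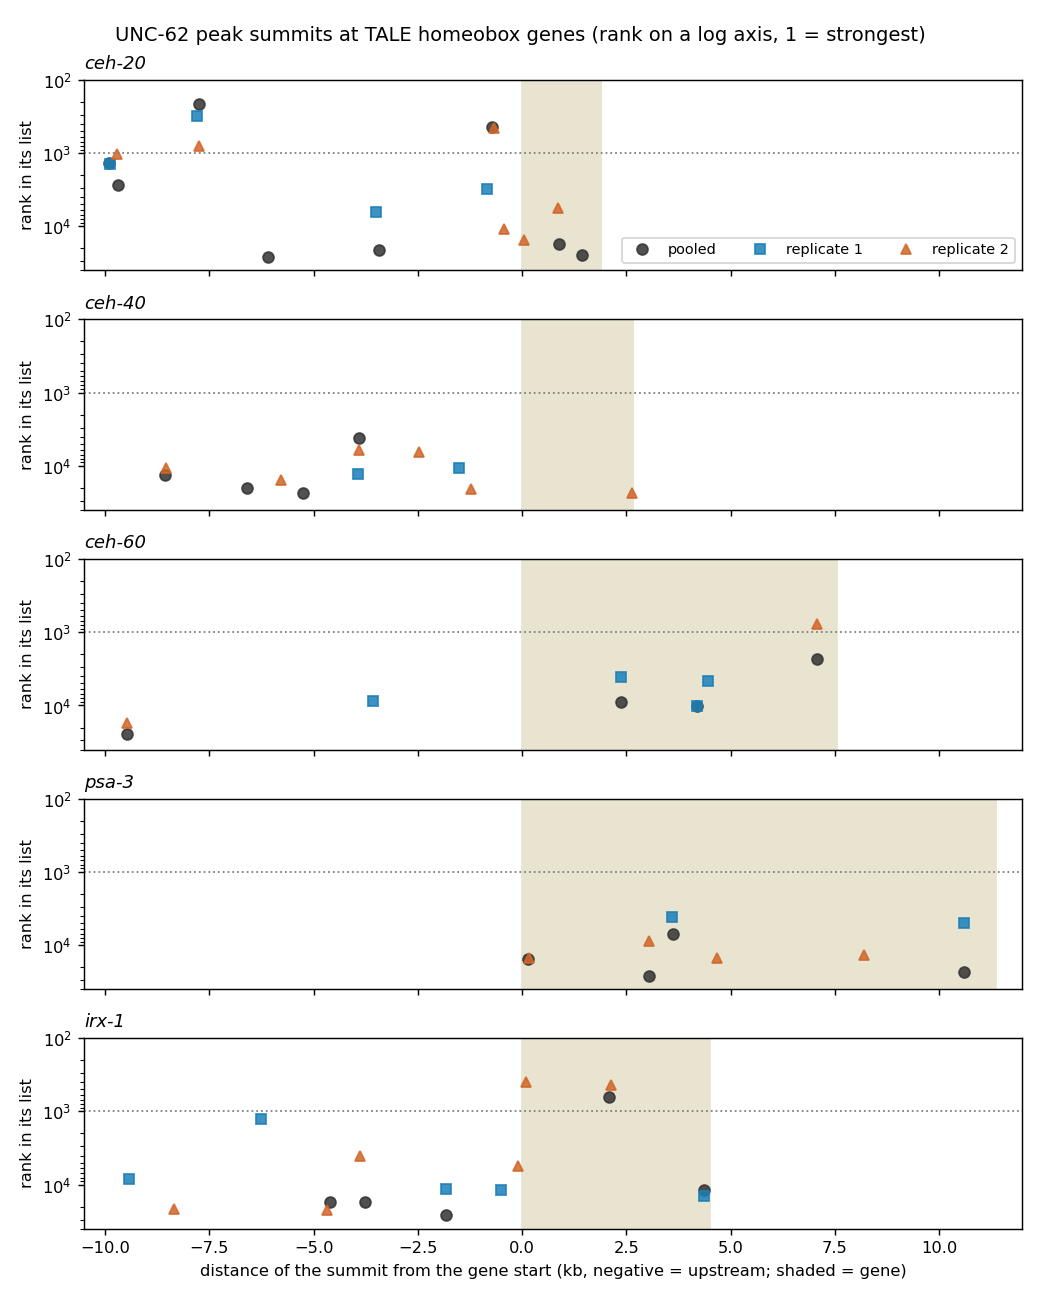
Summits of the pooled (circles), replicate 1 (squares) and replicate 2 (triangles) lists at the 5 TALE genes, by distance from the gene start (x axis, kb, negative = upstream, gene shaded) and by rank in their own list (y axis, log scale, strong at the top); the dotted line marks rank 1000. The summits at ceh-40 are upstream except 1 at the end of the gene in replicate 2, the pooled summits at psa-3 are inside the gene, and ceh-20 has squares and triangles together beside its strongest circles.

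The PBC gene ceh-40 (WBGene00000461, X:12318126-12320777, minus strand) acts redundantly with ceh-20 in the embryo. It had 4 pooled summits, none inside the gene and none with its own start as the nearest. The upstream window holds F17A2.13 and several srd genes, which belong to a family of chemoreceptors. The strongest summit, at X:12324692, lay 3915 bp upstream in a coding exon of srd-40, with pooled signal 15.9 (rank 4194), 6.98 in replicate 1 (rank 13050) and 8.37 in replicate 2 (rank 6026). This was the 1 pooled peak of ceh-40 present in both replicates. The next, at X:12329330 in a coding exon of srd-45, had signal 11.9 (rank 13523) and a peak in replicate 2 only (rank 10716). A summit in an intron of srd-41 (rank 19806) and another 683 bp from the start of that gene (rank 23785) were overlapped by neither replicate. In a coding exon of F17A2.13, replicate 1 had a peak 1516 bp upstream of ceh-40 (signal 7.38, rank 10799) and replicate 2 had one 1227 bp upstream (5.46, rank 20477). These overlapped each other but no pooled peak, and were nearer to the start of F17A2.13, at 636 and 347 bp. Replicate 2 alone had peaks 2483 bp upstream (8.2, rank 6503) and 5770 bp upstream (6.17, rank 15577), also without a pooled peak. A pooled summit 1 bp past the end of the gene (signal 10.9, rank 17658) fell just outside the window.

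Both ceh-40 sequences below are from ce11, plus strand, 100 bp to either side of a summit. The first, chrX:12324592-12324792, is the strongest peak, and its capitals mark TGATNNAT, a Hox-PBC type sequence, which matched on both strands in overlapping positions 4 and 2 bp from the summit.
ceh-40 upstream strongest peak: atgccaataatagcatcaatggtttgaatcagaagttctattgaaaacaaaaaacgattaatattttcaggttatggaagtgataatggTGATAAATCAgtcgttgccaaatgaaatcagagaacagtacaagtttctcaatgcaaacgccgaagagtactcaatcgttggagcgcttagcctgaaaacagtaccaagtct
The other, chrX:12325941-12326141, is the weak peak near srd-41 and the single window of the 25 at TALE genes with the Meis core TGACAG, marked in capitals.
ceh-40 upstream weak peak: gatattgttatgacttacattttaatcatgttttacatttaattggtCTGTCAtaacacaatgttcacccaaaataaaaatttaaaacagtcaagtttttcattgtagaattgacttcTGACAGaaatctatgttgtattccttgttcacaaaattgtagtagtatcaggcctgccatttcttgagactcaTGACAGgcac
TGACAG matched there 3 times, at 48, 18 and 91 bp from the summit, and 6 of the 30000 pooled windows held 3 or more matches. The peak ranked 23785 and had no replicate peak. A TGACAG match was present in 1 of the 25 windows (4%), in 7.57% of all pooled windows and in 9.5% of those ranked 1000 or better. The whole 12652 bp window of ceh-40 held 10 TGACAG, of which 3 were these.

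The PBC gene ceh-60 (WBGene00017690, X:6522596-6530146, minus strand) is expressed in the intestine among other tissues and takes part with UNC-62 in vitellogenin expression. Of its 4 pooled summits, 3 lay in introns of its 7551 bp and 1 lay 9476 bp upstream. The strongest, at X:6523077, was 7069 bp into the gene, near its 3' end, with pooled signal 18 (rank 2292). Replicate 2 had a peak there of signal 13 (rank 771) and replicate 1 had none. The opposite held for the others in introns. At X:6527772 the pooled signal was 13.3 (rank 8984) and that of replicate 1 was 9.46 (rank 4132). At the remaining intron summit they were 12.9 (rank 10261) and 7.52 (rank 10304). A stronger replicate 1 peak with its summit elsewhere in the gene, of signal 9.17 (rank 4708), also overlapped that pooled peak. Replicate 2 had no peak at either summit. No intronic peak of ceh-60 was thus listed in both replicates. The upstream summit was weak, with pooled signal 9.52 (rank 24805) and a peak in replicate 2 only (5.93, rank 17162). The strongest summit was nearest to the start of ets-4, which encodes an ETS transcription factor, 3258 bp away.

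The windows of the strongest 2 summits in ceh-60 introns are shown because each held TGATNNAT close to its summit. They are printed in order of signal, from ce11 on the plus strand, with the match on either strand in capitals: a is chrX:6522977-6523177 and b is chrX:6527672-6527872.
ceh-60 intron peak a: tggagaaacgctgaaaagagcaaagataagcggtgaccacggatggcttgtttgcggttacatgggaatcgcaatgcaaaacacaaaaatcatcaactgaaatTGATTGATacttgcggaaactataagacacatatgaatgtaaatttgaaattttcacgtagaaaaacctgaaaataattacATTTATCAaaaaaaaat
ceh-60 intron peak b: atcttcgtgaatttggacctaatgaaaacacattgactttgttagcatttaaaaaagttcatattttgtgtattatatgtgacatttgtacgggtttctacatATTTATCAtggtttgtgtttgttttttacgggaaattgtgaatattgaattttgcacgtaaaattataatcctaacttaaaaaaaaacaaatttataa
In a the matches were 3 and 84 bp from the summit and in b 3 bp. TGATNNAT was present in 8 of the 25 windows at TALE genes (32%), against 16.5% of all pooled windows and 17.5% of those ranked 1000 or better. The GC content of the 8 windows ran from 25.4% to 45.8%. Its median was 34.8% over the 25 windows and 35.8% over all pooled windows, and the part of base composition in the count was not tested. Outside ceh-60, 3 of the windows with TGATNNAT were at ceh-20, 1 at ceh-40 and 1 at irx-1. At ceh-20 they included the overlapping pair at the far edge of the window, with matches 2 and 3 bp from the summits.

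TGATTGAC joins TGAT, the first letters of TGATNNAT, to TGAC, the first letters of the Meis core. It was present in 0 of the 25 windows, and in 0.803% of all pooled windows. The GA repeat GAGAGA was present in 1 of the 25 (4%), the ceh-20 peak beside rfc-4, against 13.6% of all pooled windows and 29.9% of those ranked 1000 or better. Each sequence was searched on both strands. TGACA is contained in TGACAG, and TGATNNAT can overlap TGATTGAC only in part of its letters. A match is a description of the sequence, and its absence says only that these letters are not within 100 bp of a pooled summit. Summits of the replicate lists are not in these counts. Some of them held matches, among them TGACAG at a replicate 2 summit 46 bp into ceh-20 (rank 15600), which no pooled peak overlapped.

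The Meis-related gene psa-3 (WBGene00009560, X:15407931-15419298, plus strand) is required for the asymmetric division of the T cell in the tail, where its expression depends on the Hox protein NOB-1 and on CEH-20. Its 4 pooled summits were all inside the gene, which with its 11368 bp and 4 annotated transcript starts is the longest of the 5. The strongest, at X:15411542, lay 3611 bp into psa-3, within an intron that also holds coding sequence of pqn-36. Its signal was 14.1 pooled (rank 7039) and 9.46 in replicate 1 (rank 4130), with no peak in replicate 2. At X:15410964, also over pqn-36, replicate 2 had a peak of signal 7.46 (rank 8929) and replicate 1 had none, with a pooled signal of 9.24 (rank 26177). The summit nearest to the start of the gene was 151 bp into it, in an intron, with pooled signal 11.4 (rank 15281) and a peak in replicate 2 alone (6.24, rank 15115). The last, 10598 bp into the gene, had pooled signal 9.86 (rank 23049) and 9.05 in replicate 1 (rank 5022), with no peak in replicate 2. No psa-3 summit was thus present in both replicates. The psa-3 window held 13 TGACAG, as many as that of unc-62, and none was within 100 bp of a pooled summit.

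The Iroquois gene irx-1 (WBGene00007984, I:9536465-9540966, minus strand) had 5 pooled summits, 2 inside the gene and 3 upstream. The strongest lay in an intron 2091 bp from the start, at I:9538875, with pooled signal 22.5 (rank 632). Replicate 2 had a peak there of signal 14.6 (rank 439), and replicate 1 had none. Among pooled peaks ranked 1000 or better this was uncommon, since replicate 1 overlapped 91.2% of them and both replicates 88.6%. The irx-1 intron peak was 1 of the 88 (8.8%) that replicate 1 lacked. Its pooled summit was nearest to the start of irx-1. The replicate 2 summit, 2127 bp from that start, was nearer to that of C41G7.7, at 2099 bp. The summit next in rank, at the 3' end of irx-1 and in the 5' untranslated region of C41G7.7, had pooled signal 12.3 (rank 11747). Replicate 1 had a peak there (6.81, rank 14231) and replicate 2 had none. A further replicate 1 peak (7.04, rank 12663), with its summit outside the window, also overlapped this pooled peak. Upstream, summits in an intron of swah-1 and 11 bp from its start both had a pooled signal of 11 (ranks 17282 and 17354) and a peak in replicate 2 only. That at the swah-1 start had a signal of 9.2 in replicate 2 (rank 4102).

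Each replicate's strongest peak at irx-1 was absent from the other lists. In replicate 2 it lay in a coding exon 96 bp from the start of the gene, at I:9540870, with signal 14.9 (rank 396). No peak of the pooled list or of replicate 1 overlapped it, and it was 1 of 12 among replicate 2's 1000 strongest peaks (1.2%) with no pooled peak. In replicate 1 it lay 6250 bp upstream, with signal 11.9 (rank 1263), and again overlapped no pooled peak and none of replicate 2. The rank of irx-1 in each list therefore came from 3 different places. Over the 5 genes, 5 of 17 replicate 1 summits (29.4%) and 9 of 24 replicate 2 summits (37.5%) had no pooled peak, against 20.1% and 31.5% of the whole lists.

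The genes whose best ranks in the pooled and both replicate lists were most like those of a TALE gene were in part its own neighbours. Likeness was the distance between log10 ranks over the 3 lists, compared with 15775 other genes that had a summit in each. At ceh-20 the nearest were F31E3.6 and eef-1A.1, at ceh-40 srd-41 among others, and at irx-1 swah-1, all at a distance of 0 because their windows overlap and hold the same peaks. At ceh-60 the nearest was F55C12.6, at 0.0972 in log10 rank, with ranks of 2002, 4497 and 902 in the pooled, replicate 1 and replicate 2 lists. At psa-3 it was F28H6.7, at 0.0348, with 6567, 4113 and 9293.

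Genes known to act with these proteins were read in the same windows, for which the shares over all genes were 1.43% with an IDR summit and 11.6% with a pooled summit of rank 1000 or better. With 5 to 8 genes a list, no count below is called a departure from these shares. Of 6 Hox genes, none had an IDR summit and 1 had a pooled summit of rank 1000 or better: lin-39, the Hox gene of the mid-body, at rank 376 (signal 24.8) in an intron 1761 bp into the gene, with peaks in both replicates. Of 6 vitellogenin genes, which encode yolk proteins, none had an IDR summit and 2 had a pooled summit of rank 1000 or better. That of vit-6 (rank 410, signal 24.4) lay 7935 bp upstream, nearer to the start of K07H8.7, with peaks in both replicates, and that of vit-1 (rank 910, signal 21.1) lay 6256 bp upstream in a coding exon of K09F5.6, with a peak in replicate 1 only. No pooled summit was in the window of vit-4. Of 5 genes known to need CEH-20 or UNC-62 in the mesoblast, vulva or seam (hlh-8, egl-18, elt-6, egl-17 and sem-2), none reached rank 1000. Of 8 genes of the T cell division in which psa-3 acts, tlp-1, which encodes a zinc finger protein, had an IDR summit 65 bp upstream at pooled rank 64 (signal 39.1), with peaks in both replicates, and the other 7 did not reach rank 1000. The replicates ranked these windows unevenly. The best ranks in replicate 1 and replicate 2 were 1941 and 36 for tlp-1, 4691 and 215 for lin-39, and 1489 and 797 for vit-6. The median best pooled rank was 7803 for the Hox genes, 3788 for the 5 vitellogenin genes with a summit, 3896 for the mesoblast, vulva and seam genes and 5801 for the T cell division genes, beside 5541 over all genes. The GATA factor genes egl-18 and elt-6 shared their strongest peak, and nob-1 is in both the Hox and the T cell list.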

How the data were processed

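UNC-62 ChIP-seq peak lists in narrowPeak format were analysed from 1 group of 2 biological replicates. Per the deposited readme texts, the authors called peaks on each replicate and on the pooled replicates against a control alignment, which was not analysed here, and derived the IDR list from those 3 lists. Which aligner, peak caller and IDR cutoff the authors used is not given in the sources used here. Each deposited signal value is the authors' own and was used only to rank and describe peaks within a list. The deposited q-values fall below 0 in the pooled list, were read as a score, and entered no result. The ce11 lists were used; the ce10 lists were not, since no ce10 annotation was at hand and no position was converted. The lists held 0 columns of other series.

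Summits were placed with Ensembl release 115 on WBcel235. A gene's window was the gene and 10000 bp upstream, a pooled peak was supported by a replicate when they overlapped by 1 bp, and motifs were searched within 100 bp of the summit. The sequence of 1 peak in ceh-60 is not reported here. The lists carry no read counts, so depth and counting error are unknown and no interval is given. With 1 group there was no comparison of conditions and no test; counts stand beside the share over all protein-coding genes. The genes, the 4 lists, the 4 motifs and the naming rule were chosen with earlier results of these data known. Named were the members and unc-62, the neighbours of the 3 strongest pooled summits of each member, the gene most alike in rank, and list genes with an IDR summit or rank 1000 or better; other genes in the text were named after their values were seen. Summit placement, overlap and motif search were tested on simulated data. Alternatives covered windows, rank limits, overlap rules, motif spans and each replicate alone. Python 3.11.15, NumPy 2.4.6, pandas 2.3.3 and matplotlib 3.10.9 were used.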

Additional observations from a re-analysis of the deposited data

How the results depend on the processing

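Of 77 alternative values, 30 moved. The bar was more than 1.5 times of a count or, for a rank, more than the standard deviation of the 2 replicates' best ranks. That standard deviation comes from the single-replicate ranks themselves, which are all given below. Both single-replicate ranks of ceh-20 moved, as did the replicate 1 ranks of ceh-40 and irx-1. A further 3 alternative values could not be had, because ceh-40 has no pooled summit within 2000 bp upstream, inside the gene, or with its own start nearest. The count of 0 genes with an IDR summit stayed 0 with 10000 bp on both sides, with any base of the peak in the window and with the 114 strongest peaks of either replicate; its other alternatives are subsets and could not raise it. The 2 genes with rank 1000 or better became 1 with the gene only, at rank 500 or better, and with only peaks overlapped by both replicates, an alternative chosen after seeing the data (irx-1 was lost); either replicate alone gave 1 to 3. The 25 pooled summits became 13 with 2000 bp upstream, 11 with the gene only, 44 with 10000 bp on both sides and 9 where the nearest start was the gene's own. The 5 overlapped by both replicates became 2 with 5000 bp upstream, 1 with 2000 bp, 0 with the gene only and 1 by own start. The 1 window with TGACAG became 0 with 5000 or 2000 bp upstream, the gene only or own start, 3 with both sides and 2 within 200 bp of the summit; single replicates gave 0 to 1. The best rank of ceh-20 became 447 with 5000 or 2000 bp upstream or own start and 17507 with the gene only, and that of ceh-60 became 8984 by own start. The best rank of psa-3 became 15281 by own start and 1460 with both sides. With 1 replicate's list alone, best ranks ran from 317 to 449 for ceh-20, 6026 to 10799 for ceh-40, 771 to 4132 for ceh-60, 4130 to 8929 for psa-3 and 396 to 1263 for irx-1. A smaller window holds fewer summits by construction; for changes with the replicate the cause was not tested. No paired analysis was possible because there was 1 group. Depth is unknown, so a peak missing from 1 replicate's list is not shown to be absent.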
